A study of Mus musculus with 17 samples.

Results

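Among GFP-sorted mouse skin cells, 203 Cyp2f2 Mmp3 fibroblasts were found, out of 30085 skin cells kept in 8 libraries and 91829 cells kept in all 17 skin and kidney libraries of the series. Cells with fewer than 200 genes, or with over 20% of their UMIs (unique molecular identifiers, each counted as 1 transcript) from mitochondrial genes, were left out. The fibroblasts were selected on measured UMIs of 9 genes, so that these genes are no finding. A cell qualified when it held at least 10 UMIs of the type I collagen genes Col1a1 and Col1a2 together, no UMI of Ptprc (the leukocyte antigen CD45) or Pecam1 (the endothelial antigen CD31), at least 2 UMIs of Cyp2f2 and Mmp3 together, no UMI of Pi16 or Cthrc1 and at most 1 UMI of Crabp1. The first 3 of these conditions on genes are called the stromal gate below. They took in 2632 skin cells, and the 2429 that failed the other conditions are called the other stromal cells. None of the 29 stromal cells in the 9 kidney libraries met the full rule.

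The study tested whether overexpression of SARA (Smad anchor for receptor activation, encoded by Zfyve9 in the mouse) changed scleroderma-like skin fibrosis induced by bleomycin. All mice carried PDGFRb-Cre and the Z/EG reporter, so that GFP marked cells in which the Pdgfrb promoter had been active, and this Cre also acts in leukocytes. SARATg mice carried in addition a human ZFYVE9 cDNA behind a lox-stop-lox cassette at the Rosa26 locus, and SARAWT mice did not. The 8-week-old mice received PBS or bleomycin at 20 mg/kg under the skin 3 times a week for 2 weeks per the labels, and GFP+ cells were sorted from enzyme-digested skin. The methods instead describe daily injections over the same period and a further week before harvest, and which schedule these mice had is not known here. There were 3 SARAWT libraries with PBS, 3 SARAWT libraries with bleomycin and 1 SARATg library with each treatment. With 1 library a treatment, the SARATg values have no replicate of their own.

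Dermal fibroblasts build and remodel the collagen-rich matrix of the skin. They fall into papillary, reticular, adventitial and hair follicle-associated populations that share collagen genes and differ in proteases, matrix proteins and signalling genes. Cyp2f2 is a cytochrome P450 mono-oxygenase best known from the airway, where it activates inhaled compounds. Mmp3 (stromelysin 1) is a secreted protease that cleaves proteoglycans and activates other matrix metalloproteinases. Of the genes that set the exclusions, Pi16 marks adventitial fibroblasts, Cthrc1 marks matrix-producing fibroblasts of injured tissue, and Crabp1 is a retinoic acid-binding protein found in some dermal populations.

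The 8 libraries held 3355217 to 69765525 UMIs. Several features of the libraries bear on every value below. The libraries labelled SARAWT PBS 1 and 2 and SARAWT bleomycin 1 and 2 use a gene list of 32286 entries and hold Xist, whereas SARAWT PBS 3, SARAWT bleomycin 3 and both SARATg libraries use a list of 31053 entries and hold Y-linked transcripts, so that sex and gene list cannot be told apart. Any pair among the first 4 libraries shared 10.8% to 59.3% of the cell barcodes of the smaller library, against at most 0.256% for every other pair. In all, 20 of the 203 cells had a barcode also seen in another skin library. They were 5 of 10 cells in SARAWT PBS 1, 1 of 2 in PBS 2, 4 of 5 in bleomycin 1 and 4 of 9 in bleomycin 2. A further 5 of 113 were in SARATg PBS and 1 of 11 in SARAWT bleomycin 3. The transgene check went against labels. In the selected cells, mouse Zfyve9 was at 640 CPM (UMIs of the gene per 1e6 UMIs of these cells) in the library labelled SARAWT PBS 3, at 282 CPM in SARATg PBS and at 306 CPM in SARATg bleomycin, and at 0 to 73.6 CPM in the other 5. Human ZFYVE9, listed only in the longer gene list, was at 939 CPM (63 UMIs) in the library labelled SARAWT PBS 1 and at 0 to 57.5 CPM in the other libraries with that list. Counts and shares that change without single libraries are therefore also given without them where a fit could be made. Only single libraries were left out, so no fit was without both SARAWT PBS 1 and PBS 3. No SARAWT bleomycin library reached such levels where the genes were listed. Treatment in SARAWT thus cannot be fully told apart from this signal. Nothing in the labels says whether the replicates of a group came from separate animals, so that p-values measure the spread between these libraries.

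The 203 cells were unevenly spread. SARAWT PBS 1, 2 and 3 held 10, 2 and 49 of them, SARAWT bleomycin 1, 2 and 3 held 5, 9 and 11, SARATg PBS held 113 and SARATg bleomycin held 4. The library labelled SARAWT PBS 3 and SARATg PBS together supplied 162 cells (79.8%). Of all 203 cells, 125 (61.6%) held UMIs of both Cyp2f2 and Mmp3, 59 held Mmp3 only and 19 held Cyp2f2 only. The cells with both genes came mainly from SARATg PBS (87) and SARAWT PBS 3 (26), while SARAWT bleomycin 1 had none. The median cell held 15695 UMIs and 3592 genes, with 2.49% mitochondrial UMIs, and the median by library ran from 1441 UMIs in SARAWT bleomycin 1 to 18396 in SARATg PBS. At the edge of the rule, 28 cells held exactly 2 UMIs of the gene pair and 18 held 3, while 46 cells with 1 UMI and 700 with 0 met every other condition.

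**Figure D1:**
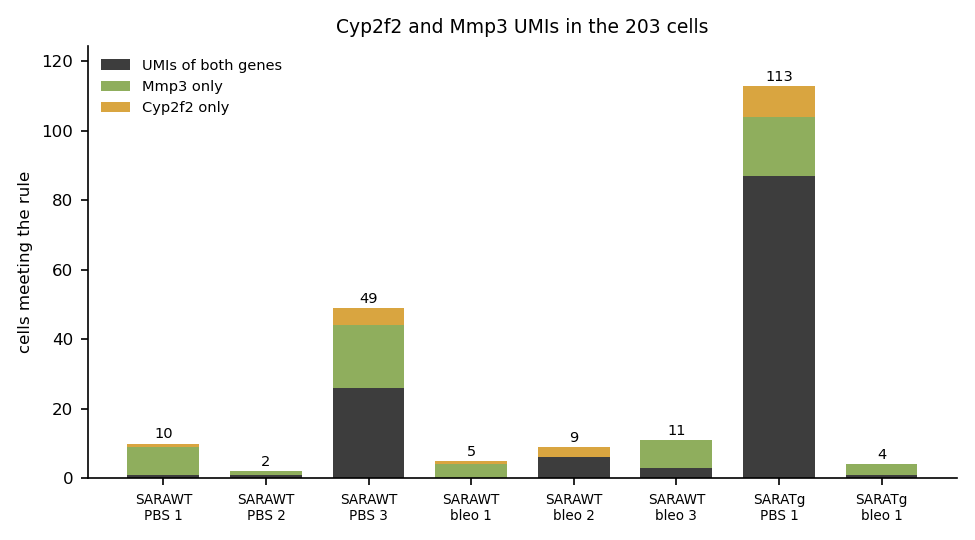
Number of cells meeting the rule in each skin library (vertical axis, cells), split by whether a cell held UMIs of Cyp2f2 and Mmp3, of Mmp3 only or of Cyp2f2 only. SARATg PBS (113 cells) and the library labelled SARAWT PBS 3 (49 cells) stand above the other 6, which hold 2 to 11 cells.

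The cells that held only one gene of the pair resembled those that held both in some genes and not in others, in the pair of libraries with enough cells to look. In SARATg PBS, the cathepsin Ctsk was at 3113 CPM in the 87 cells with both genes, 2875 CPM in the 17 with Mmp3 only and 2053 CPM in the 9 with Cyp2f2 only. In the library labelled SARAWT PBS 3 it was at 2435, 2676 and 931 CPM in 26, 18 and 5 cells. Cpz, a carboxypeptidase that acts on Wnt proteins, stood at 472 CPM with both genes, 197 CPM with Mmp3 only and 125 CPM with Cyp2f2 only in SARAWT PBS 3, and at 821, 584 and 684 CPM in SARATg PBS. Ctsk was thus lowest in the cells with Cyp2f2 only in both libraries, whereas the order for Cpz differed between them. The cells with both genes were also deeper, with a median of 20677 UMIs against 5652 and 4636 in SARATg PBS, and the part of depth in these values was not tested. These are descriptions of cells of single libraries.

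The 5 genes by which these fibroblasts were named lie on 5 chromosomes. In GRCm38.p6, the patch release of the mm10 build named by the submitters, Cyp2f2 spans chr7:27119955-27133660, Mmp3 chr9:7445822-7455975, Ctsk chr3:95499210-95509387, Cpz chr5:35502218-35525626 and Mfap4 chr11:61485431-61488708. Ctsk (cathepsin K) degrades collagen, and Mfap4 is a microfibril-associated protein of elastic fibres. Because Cyp2f2 and Mmp3 chose the cells, their levels are given without a test.

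Summed over the selected cells of each library, Mmp3 was at 704, 348 and 1297 CPM in SARAWT PBS 1, 2 and 3, at 642, 1009 and 648 CPM in SARAWT bleomycin 1, 2 and 3, at 944 CPM in SARATg PBS and at 1248 CPM in SARATg bleomycin. Every library lay above its own other stromal cells (51.1 to 865 CPM). Cyp2f2 was at 59.9, 754 and 322 CPM with PBS and 37.8, 443 and 44.9 CPM with bleomycin in SARAWT, at 439 CPM in SARATg PBS and at 14.7 CPM in SARATg bleomycin. It exceeded the other stromal cells in 7 libraries and lay below them in SARAWT PBS 1 (59.9 against 108 CPM), and 8 of the 10 cells of that library held Mmp3 only. Cyp2f2 was also present among the excluded cells, at 25.4 to 440.2 CPM in the Pi16 fraction. This fraction is the 489 stromal cells with a Pi16 UMI, no Cthrc1 UMI and at most 1 Crabp1 UMI. It lay above the selected cells in SARAWT PBS 1 (321 against 59.9 CPM), bleomycin 1 (284 against 37.8 CPM) and bleomycin 3 (87.6 against 44.9 CPM). The same held in SARATg bleomycin and, slightly, in SARATg PBS (440.2 against 439 CPM). It lay below them in SARAWT PBS 2, PBS 3 and bleomycin 2.

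Ctsk was at 779, 1218 and 2397 CPM in SARAWT PBS 1, 2 and 3, at 3495, 2142 and 2582 CPM in SARAWT bleomycin 1, 2 and 3, at 3074 CPM in SARATg PBS and at 3025 CPM in SARATg bleomycin. The selected cells were above the other stromal cells as a whole in all 8 libraries, but not above every fraction of them. The Pi16 fraction was at 2695 CPM in SARAWT bleomycin 3, and the Cthrc1 fraction (514 cells with a Cthrc1 UMI, no Pi16 UMI and at most 1 Crabp1 UMI) at 2147 CPM in SARAWT PBS 2 and 3156 CPM in SARATg PBS. Cpz and Mfap4 were less uniform. Cpz was at 30.0, 0 and 351 CPM with PBS and 113, 160.0 and 264 CPM with bleomycin in SARAWT, at 799.9 CPM in SARATg PBS and at 117 CPM in SARATg bleomycin. It lay below the other stromal cells in SARAWT PBS 1 (76.4 CPM) and PBS 2 (144 CPM) and above them in the other 6 libraries. Mfap4 was at 165, 174 and 595 CPM with PBS and 113, 1071 and 249 CPM with bleomycin in SARAWT, at 945 CPM in SARATg PBS and at 235 CPM in SARATg bleomycin. It lay below the other stromal cells in SARAWT PBS 1 (589 CPM), SARAWT PBS 2 (1263 CPM) and SARATg PBS (1007 CPM) and above them in the other 5. Of the markers that the rule did not use, Ctsk thus went with the name in all 8 libraries. Cpz in SARAWT PBS 1 and 2, and Mfap4 in SARAWT PBS 1 and 2 and in SARATg PBS, which holds 113 of the cells, went against the name. The Pi16 fraction held more Cpz than the selected cells in every library except SARAWT PBS 3 and SARATg PBS. It held more Mfap4 than they did in every library except SARAWT PBS 3.

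**Figure D2:**
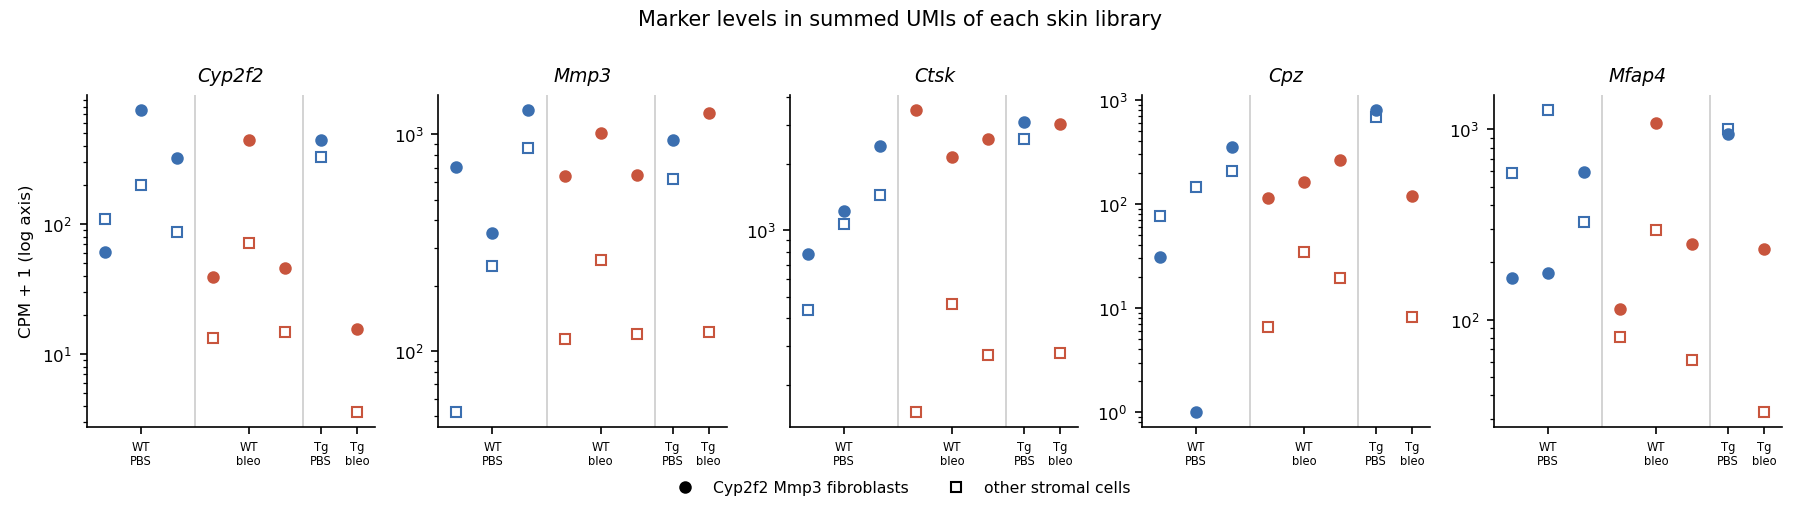
Level of Cyp2f2, Mmp3, Ctsk, Cpz and Mfap4 (vertical axes, CPM + 1 on a log axis) in summed UMIs of each skin library, blue for PBS and red for bleomycin. Filled circles are the Cyp2f2 Mmp3 fibroblasts and open squares the other stromal cells. With bleomycin, the circles for Ctsk (2142 to 3495 CPM) sit far above the squares (149.7 to 464 CPM).

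The background that free RNA can give was read from cells outside the stromal gate. A Cyp2f2 UMI occurred in 0.0797% to 0.993% of them in 7 libraries and in 6.11% in SARATg PBS, and an Mmp3 UMI in 0.558% to 2.08% and in 7.24%. Among the other stromal cells, Cyp2f2 was found in 1.82% to 67.2% and Mmp3 in 7.52% to 71.4%, in each library above the share outside the gate. Ctsk was found in 50% of the selected cells of SARAWT PBS 1 and in 95.9% to 100% of those of the other 7 libraries, against 4.69% to 16.5% outside the gate. In SARAWT PBS 1 it was found in 78.4% of the other stromal cells, a larger share than in the selected cells. Median depth differed between these classes.

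The cells carried fibroblast genes. The summed level of 10 pan-fibroblast genes was 17788 to 55384 CPM, against 435 to 6823 CPM outside the stromal gate. Pdgfrb itself was at 58.0 to 321 CPM in all 8 libraries. Markers of other lineages were low in most libraries, with exceptions. The sum of 10 leukocyte markers was 58.0 to 369 CPM, with 1 of the 10 at 0, against 21357 to 29131 CPM outside the gate. Of 8 endothelial markers, Cdh5, Egfl7, Tie1 and Vwf were at 0 throughout, while Plvap was at 14.7 to 134.8 CPM in 7 libraries (1 to 35 UMIs). The sum of the 8 exceeded that of the other stromal cells in 7 libraries, and that of cells outside the gate in SARAWT PBS 1 (134.8 against 78.8 CPM), bleomycin 1 (75.6 against 49.1 CPM) and bleomycin 2 (86.2 against 40.3 CPM). The part of endothelial RNA in the results was not tested. The sum of 8 Schwann cell markers, with Sox10 and Cdh19 at 0 throughout and 5 of the 8 detected, was 88.1 to 308 CPM, above cells outside the gate in SARAWT bleomycin 1 (227 against 167 CPM) and bleomycin 2 (308 against 159 CPM). The sum of 10 pericyte markers was 44.1 to 174 CPM. Sums above those of cells outside the gate were also seen for melanocyte markers in SARATg bleomycin (206 against 61.9 CPM) and SARATg PBS (65.5 against 44.2 CPM), for smooth muscle markers in SARAWT bleomycin 3 (329 against 297 CPM) and SARATg bleomycin (690.2 against 575 CPM) and for adipogenic markers in SARAWT bleomycin 2 (6401 against 5413 CPM). Keratinocyte markers in SARATg PBS were at 928 CPM, against 265 CPM in the other stromal cells. Cell by cell, 14 of the 203 held at least 5 UMIs of Schwann markers (at most 54), 14 of pericyte markers (at most 24), 8 of melanocyte markers (at most 40), 6 of leukocyte markers (at most 26), 6 of keratinocyte markers and 3 each of endothelial, muscle and adipocyte markers. The highest values were in 1 cell of SARAWT bleomycin 2 with 360 adipocyte UMIs, 1 of SARATg PBS with 1010 keratinocyte UMIs and 1 of SARATg PBS with 454 muscle UMIs. In all, 18 of the 203 cells were among the predicted doublets, 5 of them among the 11 cells of SARAWT bleomycin 3.

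Set against the other stromal cells of the same library, the differences ran mostly downwards. Across the 4 libraries with at least 10 selected cells, and among 3258 genes with at least 50 CPM on the higher side, 234 (7.18%) were higher in every library and 667 (20.5%) were lower in every library, at any size of difference. These are descriptions without a test, since the rule chose the cells on these counts. Besides Mmp3, genes with a high median ratio included Larp6, an RNA-binding protein that acts on type I collagen mRNA (median log2 ratio 1.57), the glycoprotein Gpnmb (1.42), the transcription factor Ets2 (1.36), the inflammatory caspase Casp4 (1.32), the aldehyde dehydrogenase Aldh3a1 (1.29) and complement C4b (1.26). Gpnmb was at 105, 384, 344 and 319 CPM in SARAWT PBS 1, PBS 3, bleomycin 3 and SARATg PBS, against 26.4, 206, 42.5 and 303 CPM in the other stromal cells, so the excess in SARATg PBS was slight. Larp6 was at 42.2 against 39.2 CPM in SARAWT PBS 3 and 33.0 against 28.4 CPM in SARATg PBS, slight in both. In SARATg PBS the excess was also slight for Casp4 (65.5 against 61.5 CPM) and C4b (388 against 365 CPM). It was larger there for Ets2 (264 against 208 CPM) and Aldh3a1 (68.0 against 35.8 CPM). Apart from the rule genes, large deficits were seen in the matricellular gene Thbs4 (-6.20) and the collagen Col8a1 (-5.74).

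By gene group, the immediate early genes stood out in number, with 7 of 15 detected members higher in every one of the 4 libraries and none lower. Leaving out the rule genes, 4 of 14 detected P450 and xenobiotic genes were higher throughout and none lower, and of 21 detected matrix proteases and inhibitors 4 were higher and 4 lower. All 6 detected Schwann genes, 8 of 10 hair follicle dermal genes and 8 of 13 proliferation genes were lower. Over all 8653 genes at 10 CPM or more, 412 were higher and 1663 lower, with a median log2 ratio of -0.15.

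The first comparison across treatments concerned how frequent the cells were. As a share of cells kept, they made up 0.245%, 0.256% and 1.06% in SARAWT PBS 1, 2 and 3, and 0.232%, 0.415% and 0.168% in SARAWT bleomycin 1, 2 and 3. The exact (Clopper-Pearson) 95% intervals, which cover counting error only, were 0.118% to 0.451%, 0.0310% to 0.922%, 0.783% to 1.39%, 0.0754% to 0.541%, 0.190% to 0.787% and 0.0839% to 0.300%. The SARAWT groups overlapped. PBS 3 had the highest share, and its interval met those of PBS 2 and bleomycin 2. The means were 0.519% ± 0.466 and 0.272% ± 0.128 (SD, n = 3 each), a difference of 0.248 percentage points with an exact two-sided permutation p of 0.5, where 0.1 is the smallest that 3 against 3 allows. Without the library labelled SARAWT PBS 3 the difference was -0.0210 percentage points. With every cell thinned to 2000 UMIs, 336 to 4027 cells were left in SARAWT PBS libraries and 1474 to 5608 in SARAWT bleomycin libraries. The SARAWT means were then 0.944% and 0.260% of the cells left (exact permutation p = 0.2). The whole rule was applied to the thinned counts, so cells that lost their Pi16, Cthrc1 or other excluding UMIs could enter. Cells meeting it went from 113 to 275 in SARATg PBS, 49 to 54 in SARAWT PBS 3 and 2 to 4 in PBS 2. They became fewer in the other libraries. SARATg PBS held 2.48% (2.05% to 2.97%) and SARATg bleomycin 0.0774% (0.0211% to 0.198%), intervals that do not meet, in 1 library each.

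The exclusions in the rule weighed on this share. Of the stromal cells with at least 2 UMIs of Cyp2f2 and Mmp3, the exclusion by Pi16, Cthrc1 or Crabp1 took 95 of 105, 25 of 27 and 97 of 146 in SARAWT PBS 1, 2 and 3, and 7 of 12, 14 of 23 and 16 of 27 in SARAWT bleomycin 1, 2 and 3. It took 468 of 581 in SARATg PBS and 25 of 29 in SARATg bleomycin. As a share of the stromal gate, cells meeting the full rule made up 2.05%, 1.85% and 16.2% with PBS and 2.89%, 5.84% and 3.97% with bleomycin in SARAWT, which overlap (exact two-sided permutation p = 1.0). In an alternative chosen after seeing the data, the exclusions were dropped. Such cells then made up 21.6%, 25.0% and 48.3% of the stromal gate with PBS and 6.94%, 14.9% and 9.75% with bleomycin in SARAWT, 78.3% in SARATg PBS and 7.46% in SARATg bleomycin. The SARAWT groups did not overlap, with means of 31.6% ± 14.6 and 10.5% ± 4.06 (SD, n = 3 each). The difference was 21.1 percentage points, with an exact two-sided permutation p of 0.1, the smallest possible. This share counts UMIs of rule genes and was chosen after its values were seen, so the p gives no independent support. The mean of the SARAWT and SARATg differences was 46.0 percentage points, where the SARATg difference comes from 1 library a treatment. Without single SARAWT libraries the SARAWT difference was 12.7 percentage points (without PBS 3) to 26.1 (without PBS 1). Within the longer gene list alone the means were 23.3% and 10.9%.

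**Figure D3:**
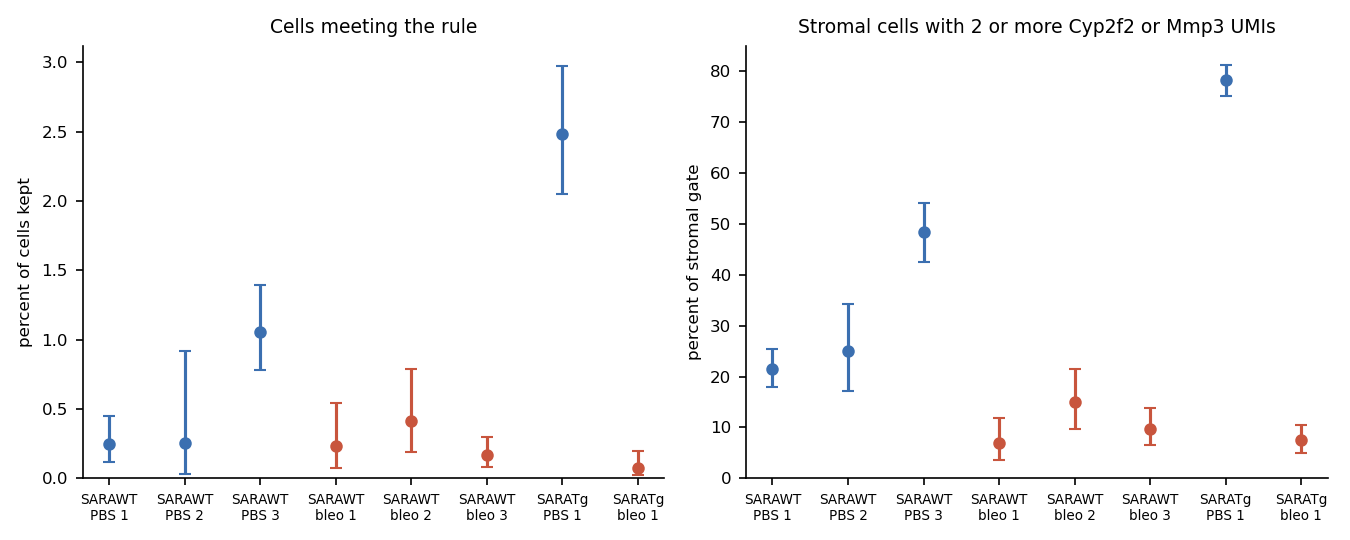
Left, cells meeting the full rule as a percent of cells kept; right, stromal cells with 2 or more UMIs of Cyp2f2 and Mmp3, without the exclusion by Pi16, Cthrc1 and Crabp1, as a percent of the stromal gate. Points are single libraries, blue for PBS and red for bleomycin, with exact 95% intervals. Treatments overlap on the left in SARAWT and do not on the right (21.6% to 78.3% against 6.94% to 14.9%).

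Levels were also compared in the whole stromal gate, which is set by collagen, Ptprc and Pecam1 but not by the other rule genes. In the stromal cells of the 6 SARAWT libraries, edgeR's quasi-likelihood test called 1392 of 11655 genes (11.9%) at a Benjamini-Hochberg adjusted p under 0.05, a count that leaving out 1 library brought to between 0 (without SARAWT bleomycin 1) and 1022. Cpz was lower with bleomycin, at a log2 fold change of -2.67 (SE 0.633, edgeR adjusted p = 0.0362), although not without SARAWT bleomycin 1, PBS 2, bleomycin 3 or PBS 3 (adjusted p from 0.0810 to 0.0984). Ctsk (-1.55, edgeR adjusted p = 0.0898), Mfap4 (-2.21, adjusted p = 0.0718), Cyp2f2 (-2.01, adjusted p = 0.106) and Mmp3 (-1.25, adjusted p = 0.371) did not pass. The Mmp3 estimate changed sign without SARAWT PBS 3. With the replicate number as a block, Ctsk (-1.44, adjusted p = 0.0200), Mfap4 (-2.42, adjusted p = 0.00341) and Cyp2f2 (-2.48, adjusted p = 0.0123) passed in edgeR. Among the other stromal cells of SARAWT, the sum of 8 Schwann markers was 339 to 766 CPM with PBS and 1277 to 1599 CPM with bleomycin, that of 10 pericyte markers 128 to 249.5 CPM and 459 to 704 CPM, and that of 8 smooth muscle markers 147 to 1514 CPM and 915 to 2171 CPM. The sum of 8 muscle markers there was 58.8 to 153 CPM with PBS and 148 to 680 CPM with bleomycin, which overlap. The part of these cell types in the values of the whole gate was not tested.

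Treatments were then compared within the selected cells. For the other stromal cells of the 6 SARAWT libraries, edgeR called 1495 of 11504 genes (13%), and 52 without SARAWT bleomycin 1. The counts that follow come from fewer libraries or fewer UMIs and cannot be set against it. The fit fixed in the design, limited to libraries with at least 10 of these cells, came down to SARAWT PBS 1, PBS 3 and bleomycin 3, with 1 residual degree of freedom. Its bleomycin arm is a single library, assumed to vary like the PBS libraries, so its calls are differences of that library. Its PBS arm holds the libraries with high human ZFYVE9 (PBS 1) or high mouse Zfyve9 (PBS 3). The part of that signal was not tested. In it 3 of 3900 genes passed (0.0769%), and 135 had an unadjusted p under 0.05. Chchd10, a protein of the mitochondrial intermembrane space, was higher in SARAWT bleomycin 3 (log2 fold change 4.80, SE 0.685, edgeR adjusted p = 0.00131), as were the IL-6 family cytokine Il11 (4.28, adjusted p = 0.0219) and Il1rl1, the receptor for IL-33 (3.07, adjusted p = 0.0462). DESeq2 called 0 genes on the same libraries (29 with an unadjusted p under 0.05). Chchd10 was at 0, 0 and 13.1 CPM in SARAWT PBS 1, 2 and 3, at 37.8, 24.6 and 324 CPM in SARAWT bleomycin 1, 2 and 3, at 12.2 CPM in SARATg PBS and at 235 CPM in SARATg bleomycin. It was higher in each bleomycin library than in any PBS library, including those outside the fit. Of the latter, SARAWT PBS 2, bleomycin 1 and bleomycin 2 held 17388, 53257 and 81575 UMIs in 2, 5 and 9 cells. Their values therefore rest on few Chchd10 UMIs or none. Il11 was at 179 CPM in SARAWT bleomycin 3, at 0 in bleomycin 1 and 2, at 14.7 CPM in SARATg bleomycin and at 0 to 14.2 CPM with PBS. Il1rl1 was at 354 CPM in SARAWT bleomycin 3, at 0 and 98.5 CPM in bleomycin 1 and 2, at 0 in SARATg bleomycin and at 0 to 50.9 CPM with PBS. Neither was thus higher in every bleomycin library. For all 3 genes the estimate rests on the 11 cells of bleomycin 3, of which 5 were predicted doublets. With the minimum of 10 cells, the fit could not be made without predicted doublets.

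Wider fits were added after seeing the data, so that the remaining libraries could enter. With all 6 SARAWT libraries, edgeR called 0 of 1164 genes (93 with an unadjusted p under 0.05) and DESeq2 called 2 (0.172%). Without overlap between treatments, 97 of the 1164 (8.33%) were above and 95 (8.16%) below in bleomycin. With all 8 libraries, and with genotype and gene list as covariates, edgeR called 0 of 1696 genes (158 with an unadjusted p under 0.05) and DESeq2 called 19 (1.12%). Leaving out single libraries brought the edgeR count of the latter fit to 1 without SARAWT PBS 1, 11 without PBS 3 and 17 without bleomycin 3. Values of the all-library fit are given below.

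Gsn, which encodes the actin-severing protein gelsolin, had one of the smallest p-values among genes with a lower estimate. It was at 13003, 6669.8 and 3992 CPM in SARAWT PBS 1, 2 and 3, at 2513, 2056 and 1336 CPM in SARAWT bleomycin 1, 2 and 3, at 2849 CPM in SARATg PBS and at 338 CPM in SARATg bleomycin. Every bleomycin value lay below every PBS value (log2 fold change -2.24, SE 0.379, edgeR adjusted p = 0.0669, DESeq2 adjusted p = 2.98e-05). The same held in the other stromal cells, at 3722 to 8999 CPM with PBS and 465 to 2194 CPM with bleomycin. Cyr61, a matricellular protein listed as Ccn1 in the longer gene list, was at 1303, 2029.9 and 1030.3 CPM with PBS and 378, 542 and 234 CPM with bleomycin in SARAWT, and at 441 and 206 CPM in SARATg. Its treatments did not overlap in SARAWT (-1.78, SE 0.320, edgeR adjusted p = 0.0721, DESeq2 adjusted p = 6.96e-05). In the other stromal cells Cyr61 was at 536 to 1211 CPM with PBS and 184 to 317 CPM with bleomycin, also without overlap. Enpp2, the secreted enzyme autotaxin that makes lysophosphatidic acid, was at 719, 464 and 208 CPM with PBS and 18.9, 86.2 and 54.8 CPM with bleomycin in SARAWT, and at 83.2 and 14.7 CPM in SARATg (-2.77, edgeR adjusted p = 0.0721, DESeq2 adjusted p = 0.00119). In SARAWT every PBS value exceeded every bleomycin value. In the other stromal cells of SARAWT the Enpp2 values overlapped (98.9 to 518 CPM with PBS and 37.6 to 210 CPM with bleomycin). Has2, which makes hyaluronan, had a log2 fold change of -2.32 (edgeR adjusted p = 0.201). None of these passed in edgeR with all 8 libraries. The alternatives to that fit are DESeq2 and edgeR without single libraries. Gsn and Enpp2 each passed in 3 of them and not in 6, Has2 in 2 and not in 7, and Cyr61 in 1 and not in 8.

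Lgals1, the carbohydrate-binding protein galectin 1, had a higher estimate. It was at 1498, 1218 and 1122 CPM with PBS and 2796, 2905 and 2692 CPM with bleomycin in SARAWT, at 958 CPM in SARATg PBS and at 2732 CPM in SARATg bleomycin. All 4 bleomycin libraries lay above all 4 PBS libraries (log2 fold change 1.16, SE 0.247, edgeR adjusted p = 0.171, DESeq2 adjusted p = 0.00298). In the other stromal cells Lgals1 was at 4698 to 7804 CPM with bleomycin and 1185 to 3589 CPM with PBS, again without overlap. Across all genes, 97 of 1696 (5.72%) were above and 27 (1.59%) below in every bleomycin library compared with every PBS library.

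**Figure D4:**
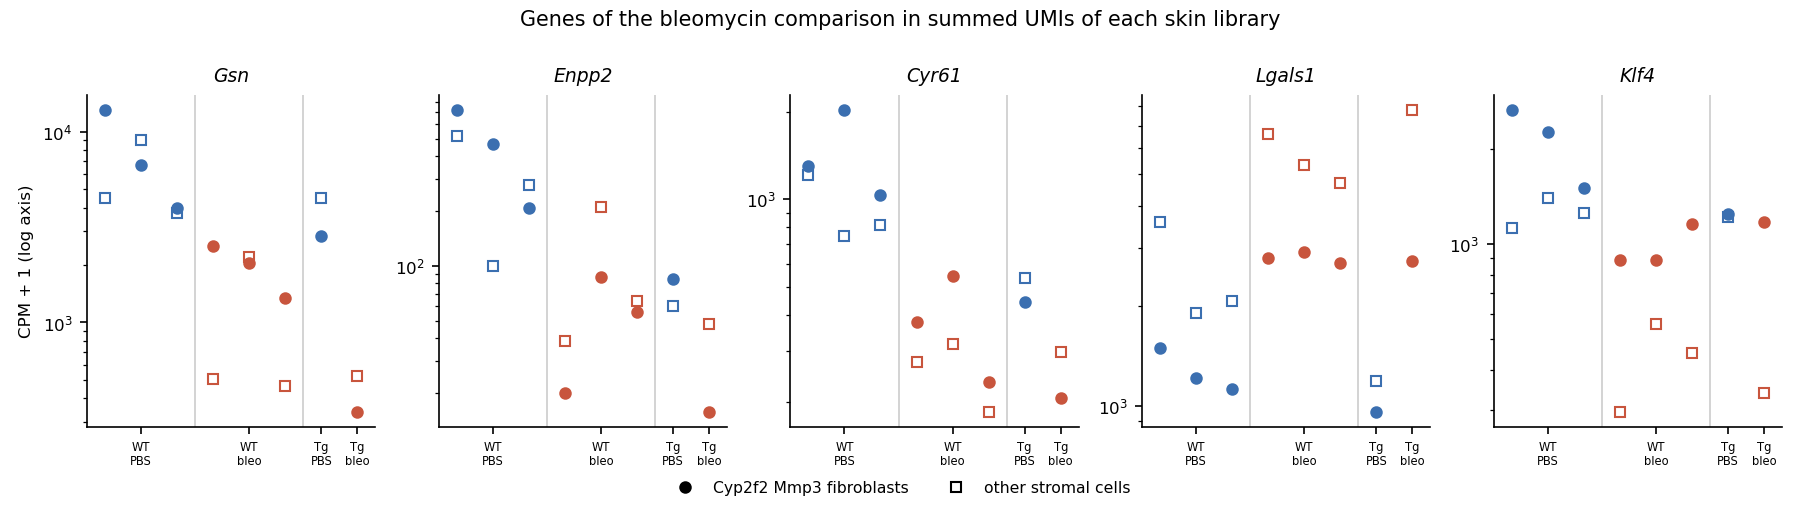
Level of Gsn, Enpp2, Cyr61, Lgals1 and Klf4 (vertical axes, CPM + 1 on a log axis) in each skin library, blue for PBS and red for bleomycin, with filled circles for Cyp2f2 Mmp3 fibroblasts and open squares for other stromal cells. In the fibroblasts, Gsn and Klf4 lie lower and Lgals1 higher in all 4 bleomycin libraries than in all 4 PBS libraries.

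Targets of p53, the transcription factor activated by DNA damage, stood at a high median in the all-library fit, although not in every fit. Of 20 listed targets, 10 passed the filter on low counts in the all-library fit, and their median log2 fold change was 1.62, against 0.01 over all 1696 genes tested. The filter asks for a high level in some libraries only. Phlda3 and Zmat3, at most 119.8 and 58.2 CPM with PBS, could pass it through the bleomycin libraries alone. The median over these 10 and their lack of overlap therefore give no independent support. With the 6 SARAWT libraries the median was 1.36, below that of the interferon list (1.39), and in the 3-library fit it was 0.47. None of the 10 passed in the all-library edgeR fit. Phlda3, an inhibitor of Akt signalling, was at 119.8, 58.0 and 105 CPM with PBS and 453, 751 and 189 CPM with bleomycin in SARAWT, at 15.7 CPM in SARATg PBS and at 235 CPM in SARATg bleomycin (log2 fold change 2.32, SE 0.516, edgeR adjusted p = 0.189, DESeq2 adjusted p = 0.00905). Every bleomycin library was above every PBS library. In the alternatives to that fit, which are DESeq2 and edgeR without single libraries, Phlda3 passed in 3 and not in 6. Zmat3, an RNA-binding protein, was at 15, 0 and 58.2 CPM with PBS and 208, 222 and 105 CPM with bleomycin in SARAWT, and at 18.8 and 249.7 CPM in SARATg (2.49, edgeR adjusted p = 0.272). The pro-apoptotic gene Bax was at 89.9, 58.0 and 201 CPM with PBS and 510.1, 529 and 219 CPM with bleomycin in SARAWT, and at 51.8 and 426 CPM in SARATg. These 3 of the 10 did not overlap between treatments, where the background was 5.72% of genes in that direction.

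Among the other stromal cells, Phlda3 was at 19.3 to 97.2 CPM with PBS and 196 to 247 CPM with bleomycin, and Ccng1 at 38.4 to 65.8 CPM and 76 to 105 CPM, both without overlap. Zmat3 stood there at 13.9 to 41.9 CPM with PBS and 33.6 to 49.4 CPM with bleomycin. Bax stood there at 59.6 to 145 CPM with PBS and 197 to 223 CPM with bleomycin, without overlap. The summed level of all 20 targets in the selected cells was 1408, 2726 and 2397 CPM with PBS and 4383, 4862 and 3116 CPM with bleomycin in SARAWT, and 1088 and 3848 CPM in SARATg. In the other stromal cells it was 1106 to 1831 CPM with PBS and 1305 to 1761 CPM with bleomycin, and 2 of 19 targets passed there in the 6 SARAWT libraries, both higher, where 13% of all genes passed. The difference of the bleomycin effect between both classes was tested for 19 of these genes in the 6 SARAWT libraries, and 0 passed.

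**Figure D5:**
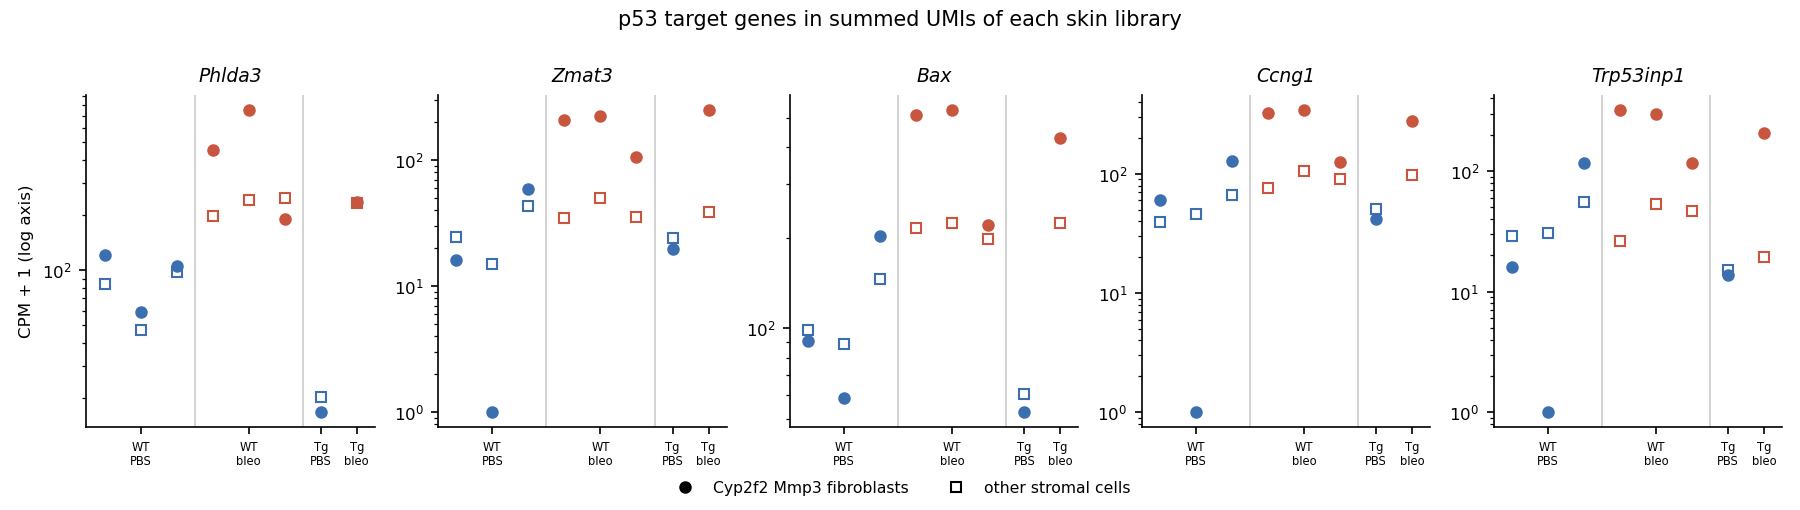
Level of the p53 targets Phlda3, Zmat3, Bax, Ccng1 and Trp53inp1 (vertical axes, CPM + 1 on a log axis) in each skin library, blue for PBS and red for bleomycin, with filled circles for Cyp2f2 Mmp3 fibroblasts and open squares for other stromal cells. Filled circles for Phlda3, Zmat3 and Bax lie higher in all 4 bleomycin libraries than in all 4 PBS libraries.

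Other gene lists had medians closer to that of all genes. Of 8 interferon-related genes tested, 6 had an estimate above 0 (median 0.79), and Psmb8, a subunit of the immunoproteasome, and H2-K1, an antigen-presenting molecule, did not overlap. H2-K1 was at 629, 812 and 640.3 CPM with PBS and 3023, 2203 and 952 CPM with bleomycin in SARAWT, and at 729 and 1307 CPM in SARATg. Of 14 immediate early genes, 12 had an estimate below 0 (median -0.50), and Zfp36, which destabilises cytokine mRNA, and the transcription factor Klf4 were lower in every bleomycin library. Beside these counts, 5.72% of all genes tested were above and 1.59% below without overlap. Of 18 matrix proteases and inhibitors, 9 had an estimate above 0 and 9 below (median 0.20). All 8 fibrillar and fibre collagens had an estimate below 0 (median -0.59), whereas 6 of 11 were above 0 in the 3-library fit (median 0.23). Of 8 basement membrane genes, 7 had an estimate below 0 in the all-library fit (median -1.09). No gene of these groups passed in the all-library edgeR fit. Mki67, a marker of cycling cells, was at or near 0 in every library.

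For the named markers, the treatments were compared in the selected cells alone. Ctsk had a log2 fold change of 0.69 (SE 0.403, edgeR adjusted p = 0.611), Cpz of -0.32 (adjusted p = 0.939) and Mfap4 of -0.17 (adjusted p = 0.968) in the all-library edgeR fit. The estimates for Cpz and Mfap4 changed sign with the libraries included. Without SARATg PBS they were 0.74 and 0.68.

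The bleomycin effect was then compared directly between the selected and the other stromal cells of the same libraries, with each library as a block and the interaction of class and treatment as the test. In the 3 libraries with at least 10 selected cells, where bleomycin is again the single library SARAWT bleomycin 3, 109 of 12004 genes differed (0.908%), 93 with a higher and 16 with a lower effect in the selected cells. In all 6 SARAWT libraries, a fit added after seeing the data, 86 of 8950 did (0.961%), 76 higher and 10 lower, and DESeq2 called 18. The 6-library count was 41 without SARAWT PBS 1, 43 without bleomycin 1, 41 without bleomycin 3 and 51 without PBS 3, and 25 without shared barcodes. Because the rule holds the selected cells at a minimum of Cyp2f2 and Mmp3 in every library, genes that vary together with that pair are held with it. Their part in these calls was not tested. The other stromal cells of SARAWT held more Schwann and pericyte marker RNA with bleomycin, as given above. They also held less Pi16 RNA, at 829, 1275 and 309 CPM with PBS and 64.5, 126 and 6.11 CPM with bleomycin. The sum of 10 universal adventitial markers there was 3022 to 6245 CPM with PBS and 602 to 1428 CPM with bleomycin. Cells with a Pi16 UMI were barred from the selected cells by the rule. The part of these shifts was not tested either.

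Ctsk was among the genes called in the 6 libraries. In the other stromal cells it was at 437, 1071 and 1435 CPM with PBS and 149.7, 464 and 273 CPM with bleomycin, while the selected cells of the same libraries ran from 779 to 2397 CPM and from 2142 to 3495 CPM. The difference of both effects was 2.75 on the log2 scale (SE 0.520, edgeR adjusted p = 0.000161, DESeq2 adjusted p = 0.0362). It did not pass in edgeR without SARAWT bleomycin 1 (2.28, adjusted p = 0.0683) or without shared barcodes (2.95, adjusted p = 0.174). Cpz differed by 3.41 (SE 0.660, edgeR adjusted p = 0.000232, DESeq2 adjusted p = 0.0414), but not without SARAWT bleomycin 3 (2.99, adjusted p = 0.0710). Mfap4 differed by 2.51 (SE 0.611, edgeR adjusted p = 0.00991), with a DESeq2 adjusted p of 0.377. It did not pass in edgeR without SARAWT PBS 1, PBS 2, bleomycin 2 or bleomycin 3 (adjusted p from 0.0897 to 0.343), and did not pass in 8 of 13 alternatives in all. Whether these contrasts set the selected cells apart from the Pi16 fraction was not tested. The Pi16 fraction, which the rule left out, held Ctsk at 566, 1153 and 1139.8 CPM with PBS and 2837, 2032 and 2695 CPM with bleomycin. They held Cpz at 121 to 197 CPM with PBS and 313 to 520.0 CPM with bleomycin, and Mfap4 at 333 to 1578 CPM and 1138 to 7375 CPM.

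Single matrix genes were among the other calls. Eln, which encodes the elastic fibre protein elastin, was at 149.8, 0 and 453 CPM with PBS and 151, 665 and 244 CPM with bleomycin in the selected cells, and at 471, 751 and 377 CPM and 19.1, 148 and 33.3 CPM in the other stromal cells. In the other stromal cells every bleomycin value was below every PBS value, which was not so in the selected cells, and the difference was 3.70 (edgeR adjusted p = 6.17e-06, DESeq2 adjusted p = 0.0275). Lrrc15, a TGF-β-induced surface protein of activated fibroblasts, was at 44.9, 0 and 21.8 CPM with PBS and 189, 49.2 and 69.8 CPM with bleomycin in the selected cells, against 945, 72.6 and 147 CPM and 94.2, 65.1 and 31.3 CPM in the others. The groups of selected cells did not overlap, and the difference was 3.86 (edgeR adjusted p = 0.000177, DESeq2 adjusted p = 0.0153). The lack of overlap rests on few UMIs, as SARAWT PBS 1 (44.9 CPM) and bleomycin 2 (49.2 CPM) held 67128 and 81575 UMIs. Of the 1164 genes tested in the selected cells of the 6 SARAWT libraries, 8.33% were above without overlap. Itgbl1, an integrin beta-like secreted protein, differed by 4.18 (edgeR adjusted p = 2.14e-07, DESeq2 adjusted p = 0.0165). Eln, Lrrc15 and Itgbl1 passed in edgeR and DESeq2 in every alternative run for this comparison. Tnxb, the matrix glycoprotein tenascin X, differed by 3.13 (edgeR adjusted p = 9.16e-05, DESeq2 adjusted p = 0.0179), but not without shared barcodes (adjusted p = 0.328) or with DESeq2 in the 3 libraries with at least 10 selected cells (adjusted p = 0.117).

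In the opposite direction, Tmsb4x, the actin-binding peptide thymosin beta 4, was at 2115 to 2572 CPM with PBS and 6237 to 8383 CPM with bleomycin in the other stromal cells, and at 1358 to 2517 CPM and 862 to 2418 CPM in the selected cells. The treatments overlapped in the selected cells, and also in the Pi16 fraction (1908 to 2589 CPM and 2510.1 to 4660.4 CPM). The difference was -1.95 (edgeR adjusted p = 0.00905, DESeq2 adjusted p = 0.0382). Postn, the matricellular protein periostin, differed by -2.84 (edgeR adjusted p = 0.000361, DESeq2 adjusted p = 0.320). Neither passed in edgeR without SARAWT PBS 1, without bleomycin 2 or without shared barcodes. In all, Tmsb4x did not pass in 7 and Postn in 5 of 13 alternatives. By group, 5 of 21 matrix proteases and 4 of 20 Wnt and bone morphogenetic protein genes passed with a higher effect in the selected cells. So did 3 of 20 elastic fibre genes and 3 of 10 universal adventitial genes. Of all 8950 genes, 76 passed with a higher effect and 0.961% in either direction. Cpz, a gene by which the cells were named, is among those proteases. The lists were chosen with earlier results known, so these counts give no independent support.

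Genotype was compared in an additive fit of both SARATg libraries against the 6 SARAWT libraries, with treatment and gene list as covariates. With the minimum of 10 cells this fit had no residual degrees of freedom, so all 8 libraries were used. Genotype was taken from the labels, although the libraries labelled SARAWT PBS 1 and PBS 3 stood high in human ZFYVE9 or mouse Zfyve9. edgeR called 0 of 1696 genes (36 at an unadjusted p under 0.05). With DESeq2, 3 were called (0.177%), namely the chemokines Ccl2, Cxcl1 and Cxcl2. Ccl2, which attracts monocytes, was at 6382, 2958 and 787 CPM in SARAWT PBS 1, 2 and 3, at 1209, 677 and 887 CPM in SARAWT bleomycin 1, 2 and 3, and at 108 and 29.4 CPM in SARATg PBS and SARATg bleomycin. Without the library labelled SARAWT PBS 3, edgeR called 5 genes, all lower in SARATg and these 3 among them. It called 2 without SARATg bleomycin and 0 without each of the other 6 libraries. Both SARATg values of Ccl2 were below all 6 SARAWT values (log2 fold change -3.76, SE 0.791, edgeR adjusted p = 0.563, DESeq2 adjusted p = 0.00193). Cxcl1, which attracts neutrophils, was at 3026, 580.0 and 774 CPM with PBS, 680.2, 1206 and 2233 CPM with bleomycin, and 87.3 and 14.7 CPM in SARATg (-4.52, edgeR adjusted p = 0.602, DESeq2 adjusted p = 0.00151). It too was lowest in both SARATg libraries. The SARATg bleomycin values come from 4 cells with 68579 UMIs, so they rest on few UMIs of these chemokines. In the other stromal cells Ccl2 was at 549 CPM in SARATg PBS and 1308 CPM in SARATg bleomycin, the latter inside the SARAWT range of 722 to 2472 CPM.

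In the 4 libraries with at least 10 selected cells and without the covariate for the gene list, where SARATg PBS is the only SARATg library, 112 of 6825 genes passed (1.64%), 58 higher and 54 lower in that library. With all 8 libraries and no such covariate, 0 passed (101 with an unadjusted p under 0.05). The highest included the keratinocyte genes Krtdap, Krt1 and Lgals7 and the muscle genes Ckm and Tnni2, beside the keratinocyte and muscle RNA of single SARATg PBS cells given above. Lum, the collagen-binding proteoglycan lumican, was at 1183 to 2727 CPM in the 6 SARAWT libraries, 3124 CPM in SARATg PBS and 7681 CPM in SARATg bleomycin. Both SARATg values were above all SARAWT values (log2 fold change 1.32, edgeR adjusted p = 0.998). Ctsk, Cpz and Mfap4 had genotype estimates of 0.51, 0.83 and 0.76, each with an edgeR adjusted p of 0.998.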

How the data were processed

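Single-cell 3′ libraries of sorted GFP+ skin cells were analysed from the deposited UMI count matrices, which the authors made with Cell Ranger against mm10. The submitters' notes name Cell Ranger 3.0.2 and Seurat 2.3.4, while the skin file headers give 3.1.0 (31053 genes) or 4.0.0 (32286 genes). The 30406 gene identifiers shared by both lists were tested. The cells and gene lists were chosen with earlier results of these data known.

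UMI counts were summed per library over the selected cells and tested with edgeR 4.0.16 (quasi-likelihood, filterByExpr, TMM, two-sided, Benjamini-Hochberg adjustment, threshold 0.05), with DESeq2 1.42.0 as an alternative. The SE beside an edgeR log2 fold change is its absolute value divided by the square root of the quasi-likelihood F, not a fitted standard error. CPM used the summed UMIs of the same cells. The genotype fit as designed had no residual degrees of freedom, so all 8 libraries entered. Shares were compared by exact permutation over libraries (scipy 1.17.1). Doublets were predicted with Scrublet (scanpy 1.11.5) at 0.8% per 1000 cells. Named genes were the rule and marker genes, up to 12 per direction among genes that passed without overlap, and, where under 10 passed, the 5 per direction with the smallest p, with members of the fixed lists beside them. Figure genes and single list members were chosen after their values were seen. Some genes are not reported here.

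Same-numbered SARAWT libraries deviated together in the stromal gate (correlations 0.207, 0.181 and 0.457 over 8544 genes) while in the selected cells only replicate 3 did so (0.0532, -0.00693 and 0.279), so the numbers were not taken to pair those. In simulated data, log2 changes of 2 were recovered in 7.5% of 200 genes with the libraries of at least 10 cells, 57.0% with 6 libraries and 75.0% with 8.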

Additional observations from a re-analysis of the deposited data

Results flagged for a closer look

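Other stromal cells of SARAWT held more Schwann and pericyte marker RNA with bleomycin than with PBS. They held less Pi16 RNA, at 309 to 1275 CPM with PBS and 6.11 to 126 CPM with bleomycin. The rule also holds the selected cells at a minimum of Cyp2f2 and Mmp3 and bars Pi16, and genes that vary with these are held too. The part of these points in the counts below was not tested. The bleomycin effect differed between Cyp2f2 Mmp3 fibroblasts and other stromal cells, by a test of the difference itself, for 86 genes in the 6 SARAWT libraries. In the libraries with at least 10 such cells the count was 109 genes, but bleomycin is there a single library with 1 residual degree of freedom, so these are differences of that library. The same test gave log2 differences of 2.75 for Ctsk, 3.41 for Cpz and 2.51 for Mfap4 (not passed in 8 of 13 alternatives) in edgeR over the 6 libraries, and stromal cells with a Pi16 UMI, no Cthrc1 UMI and at most 1 Crabp1 UMI, counted among the others, held Ctsk at 566 to 1153 CPM with PBS and 2032 to 2837 CPM with bleomycin in SARAWT. Human ZFYVE9, which enters no comparison, had 63 UMIs in the 10 selected cells of the library labelled SARAWT PBS 1, whose label gives no transgene.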

How the results depend on the processing

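Of the 8 libraries, 6 held at most 11 selected cells. Of the alternative settings, 12 for the bleomycin effect, 3 for its difference and 5 for genotype could not be fitted, since too few libraries held 10 cells, leaving either no residual degrees of freedom or a group with no library, and fits with all libraries were added after seeing the data. The cause of the changes below was not tested.

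The difference in share between SARAWT treatments ranged from -0.0210 to 0.385 percentage points when single libraries were left out, reversing without PBS 3, and with the replicate number as a block it stayed at 0.248 (exact sign-flip p = 0.75, the smallest possible being 0.25). For the bleomycin effect in the selected cells, the count of 3 genes became 0 with DESeq2, 26 with RLE size factors and 13 with no filter on low counts. With all 6 SARAWT libraries it was 0, also with RLE size factors, the replicate block, the gene list as covariate, stricter cells, without shared barcodes or doublets, with at least 3 UMIs, with only the cells that held a Cyp2f2 UMI, with only those that held an Mmp3 UMI, with thinned cells and with any 1 library left out, and 34 with no filter. With 8 libraries it was 0, 19 with DESeq2 and 0 to 17 with libraries left out. The count for the difference of the effect went from 109 to 25 with DESeq2, and with 6 libraries was 18 with DESeq2, 64 with no filter, 25 without shared barcodes and 41 (without PBS 1 or bleomycin 3), 43 (without bleomycin 1), 51 (without PBS 3), 87 or 97 with libraries left out. The genotype count of 0 was 3 with DESeq2, 0 without the gene list as covariate, 0 to 5 with libraries left out, being 5 without SARAWT PBS 3 and 2 without SARATg bleomycin, and 112 in 4 libraries without the covariate, where libraries and covariate changed together. In the other stromal cells, 1495 genes became 52 to 1163 with libraries left out. In all stromal cells, 1392 genes became 0 to 1022 with libraries left out, 2056 with the replicate block and 3205 with all 8 libraries. The difference between gene lists there went from 0 to 33 genes with DESeq2.

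In the 8-library fit of the selected cells, the Cpz estimate reversed to 0.026 with DESeq2 and ranged from -0.87 to 0.84 with libraries left out, being 0.74 without SARATg PBS and 0.84 without SARATg bleomycin, and that of Mfap4 ranged from -1.41 to 0.68, being 0.68, 0.66, 0.37 and 0.39 without SARATg PBS, SARATg bleomycin, SARAWT bleomycin 3 and SARAWT PBS 3. Mmp3 in all stromal cells ranged from -1.80 to 0.33, reversing without SARAWT PBS 3. Of the other alternatives for single genes, 329 kept direction and side of the threshold, 40 passed newly and 58 no longer passed.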
